A study of Mus musculus with 18 samples.

Results

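Glucocorticoid-responsive genes were followed across the brains of mice lacking T1R3 and of wild-type mice. The 10 genes, chosen by name from the known transcriptional targets of the glucocorticoid receptor, were Fkbp5, Sgk1, Tsc22d3, Per1, Zbtb16, Pdk4, Cdkn1a, Mt1, Mt2 and Errfi1. They were chosen from results of these same arrays already in view, among them the levels by array number, so values by number are a description with no test. No threshold on a value was used, and every probe carrying a member's current or former symbol was taken. Of the 10 genes, 9 had a named probe, and Zbtb16, a zinc finger repressor, was not analysed here. Those 9 genes had 13 of the 25697 probes on the array: 3 for Cdkn1a, 2 each for Per1 and Tsc22d3, and 1 for each of the others. All 13 were among the 15476 probes tested and were detected on 18 of 18 arrays.

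T1R3, encoded by Tas1r3, is a subunit that sweet and umami taste receptors have in common. The groups were cortex, hippocampus and hypothalamus of T1R3 knockout (T1R3KO) males and the same regions of wild-type (WT) males, with 3 arrays in each of the 6 groups. All animals had the strain background C57BL/6J and were 4 to 5 months old. Knockout mice came from a line bred with C57BL/6J over at least 4 generations, and the design text counts 18 animals in all. Arrays carry the numbers 1 to 3 in every group. What a number stands for (an animal or a litter, for instance) is not stated, so p-values measure the spread between these arrays.

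Corticosterone, the main glucocorticoid of mice, enters cells and binds the glucocorticoid receptor, which leaves its chaperones, moves to the nucleus and binds DNA at glucocorticoid response elements. Its targets include a feedback inhibitor of the receptor, anti-inflammatory factors, a clock gene, kinases, metabolic switches and metal-binding proteins, and in brain many of them are induced by stress and follow the daily hormone rhythm. Several also answer to other signals, such as zinc for the metallothioneins, p53 for Cdkn1a and neuronal activity for Per1.

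The promoters of the members were read from RefSeq (GRCm38.p6), 250 bases before each start, on both strands. Promoters of all 9 measured genes were in the table. The full palindrome, AGAACA and TGTTCT with any 3 bases between them, to which the receptor binds as a dimer, was found at 3 of 32851 starts (0.00913%). One of them was start 5 of the 6 starts of Sgk1, 189 bases before it, shown here because it was the only member promoter with the palindrome. Its window is chr10:21993680-21993739 on the plus strand, and the capitals mark the palindrome.
Sgk1: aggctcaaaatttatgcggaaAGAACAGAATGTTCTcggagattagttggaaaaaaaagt
The shorter core ACANNNTGT was found at 5.84% of all starts. Among the members it lay at start 2 of Sgk1, at start 5 within the palindrome, and at Mt1, 92 bases before the start.

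Mt1 and Mt2 are shown because a second input, zinc through metal response elements, is known for them. The letters searched, TGCACNC or TGCGCNC, occurred at 21.4% of starts. Mt2 had 3 matches, Mt1 had 1, and start 2 of Per1 had 1. The Mt2 window is chr8:94172478-94172577 and the Mt1 window is chr8:94178949-94179088, both on the plus strand, with metal response elements in capitals. The windows hold the match of Mt1 and 2 of the 3 matches of Mt2, and the other lies 223 bases before the Mt2 start, outside the window.
Mt2: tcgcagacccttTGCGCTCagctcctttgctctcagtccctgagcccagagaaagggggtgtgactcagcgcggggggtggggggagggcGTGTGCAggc
Mt1: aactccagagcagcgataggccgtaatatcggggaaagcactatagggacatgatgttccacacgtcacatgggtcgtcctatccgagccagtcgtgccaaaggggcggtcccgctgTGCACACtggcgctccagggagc
The cyclic AMP response element TGACGTCA, found at 1.55% of starts, lay 51 bases before start 2 of Errfi1. The E-box CACGTG, found at 6.02% of starts, lay in promoters of Fkbp5, Sgk1 and Per1. A match is a description of the letters and not a binding site shown by these data.

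Levels are log2 values after background correction and quantile normalization, and a difference of 1 is a 2-fold change in normalized signal. Mean signal per array was 788 to 1388 intensity units, and 52.1% to 58.1% of probes were detected. The Tas1r3 probe was detected on 1 of 18 arrays, a wild-type cortex array, with signals of 112.3 to 163.9 in knockout and 112.3 to 151.9 in wild type, so it does not check the labels. In wild type Avp, the vasopressin precursor that marks hypothalamus, was higher in hypothalamus than in cortex by 6.997 ± 0.190 (SE, log2 scale). Cortex arrays differed among themselves in markers of striatum and of hypothalamus. On the scale of the wild-type cortex mean, 6 striatal markers averaged 1.48 and 0.71 on knockout arrays 1 and 3 and -0.71 on knockout array 2, against 0.58 on wild-type array 2 and -0.35 and -0.23 on the other two wild-type arrays. On that scale 10 hypothalamus markers averaged 1.07 and 0.37 on knockout cortex arrays 1 and 3 and -0.12 on array 2. They averaged 0.32 on wild-type cortex array 2 and -0.22 and -0.10 on wild-type cortex arrays 1 and 3. Wild-type hippocampus array 1 was low in 6 choroid plexus markers, at -2.83 against 1.40 and 1.43 on the other two. In bulk tissue, fewer cells of a type and less RNA per cell cannot be told apart.

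Fkbp5 encodes a co-chaperone that lowers the hormone affinity of the receptor and is part of its feedback loop. In cortex it stood at 9.49, 9.11 and 8.99 on knockout arrays 1, 2 and 3, against 8.83, 8.95 and 8.69 on wild-type arrays. All knockout arrays were above all wild-type arrays there. In hippocampus it stood at 9.75, 9.82 and 9.42 in knockout, against 9.54, 9.38 and 9.75 in wild type. In hypothalamus it stood at 8.92, 8.77 and 8.25 in knockout, against 8.46, 8.72 and 8.55 in wild type. The genotypes overlapped in both of these regions, and in each region the lowest knockout array was number 3.

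Tsc22d3 encodes GILZ, a leucine zipper protein that restrains inflammatory transcription factors. By its brighter probe it stood at 12.49, 12.66 and 12.27 in knockout cortex, against 12.70, 12.54 and 12.66 in wild type. Hippocampus arrays gave 12.60, 12.53 and 12.49 in knockout, against 12.71, 12.61 and 12.34 in wild type. Hypothalamus arrays gave 13.02, 13.06 and 12.81 in knockout, against 13.33, 13.05 and 13.04 in wild type. The genotypes overlapped in every region. The second probe gave 6.96 on knockout cortex array 3, the lowest of its 18 values, which otherwise lay between 7.26 and 8.34. Deviations of the 2 probes from their group means had r = 0.679 over the 18 arrays.

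Per1, a repressor in the circadian clock, is also induced directly by glucocorticoids. Its brighter probe stood at 11.08, 11.16 and 10.62 in knockout cortex, against 11.12, 11.003 and 11.20 in wild type. Values in hippocampus were 10.79, 10.66 and 10.56 in knockout, against 10.67, 10.71 and 10.51 in wild type. Values in hypothalamus were 10.38, 10.34 and 10.60 in knockout, against 10.37, 10.43 and 10.42 in wild type. Knockout array 3 was the lowest of the cortex arrays and the highest of the hypothalamus arrays, and the genotypes overlapped in every region. The second Per1 probe also had its lowest cortex value, 8.88, on knockout array 3, while in hypothalamus it stood at 8.49 there, between the other knockout arrays.

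Sgk1 encodes a kinase that regulates ion channels and transporters. In cortex it stood at 13.65, 13.19 and 12.87 on knockout arrays 1, 2 and 3, against 13.62, 13.13 and 13.71 in wild type. In hippocampus it stood at 14.02, 13.56 and 13.40 in knockout, against 13.59, 13.58 and 13.88 in wild type. In hypothalamus it stood at 13.84, 13.12 and 12.86 in knockout, against 13.59, 13.12 and 13.59 in wild type. The knockout arrays kept the order 1, 2, 3 in every region, and in hippocampus and hypothalamus knockout array 1 was above all wild-type arrays. Wild-type array 2 was the lowest wild-type array in each region.

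Errfi1 encodes MIG6, a feedback inhibitor of the EGF receptor family, and lies on chromosome 4, as Tas1r3 does. In cortex it stood at 11.76, 11.49 and 11.20 in knockout, against 11.29, 11.36 and 11.45 in wild type. Hippocampus arrays gave 12.13, 11.73 and 11.71 in knockout, against 11.85, 11.61 and 11.78 in wild type. Hypothalamus arrays gave 11.79, 11.18 and 11.03 in knockout, against 11.26, 11.04 and 11.45 in wild type. Knockout array 1 was above every wild-type array of its region, and the other knockout arrays lay near or within the wild-type range.

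Pdk4 encodes the kinase that shuts off pyruvate dehydrogenase and so turns cells away from glucose oxidation. In cortex it stood at 8.17, 8.16 and 7.79 in knockout, against 8.24, 8.09 and 8.40 in wild type. Values in hippocampus were 8.81, 8.41 and 7.98 in knockout, against 8.23, 8.38 and 8.38 in wild type. Values in hypothalamus were 8.70, 7.92 and 7.83 in knockout, against 8.19, 7.91 and 8.15 in wild type. Knockout array 3 was below all wild-type arrays in each region, and knockout array 1 was above them in hippocampus and hypothalamus.

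Cdkn1a encodes p21, an inhibitor of cyclin-dependent kinases that arrests the cell cycle, and it had the widest spread among the members. Its brightest probe stood at 10.37, 10.22 and 9.86 in knockout cortex, against 9.73, 10.02 and 9.88 in wild type. In hippocampus it stood at 10.38, 9.13 and 8.28 in knockout, against 8.86, 8.81 and 9.07 in wild type. In hypothalamus it stood at 10.52, 9.56 and 8.65 in knockout, against 9.36, 9.04 and 9.45 in wild type. In hippocampus and hypothalamus knockout arrays 1 and 2 lay above all wild-type arrays and knockout array 3 below all of them. Knockout array 1 was 4.28-fold above array 3 in hippocampus, 3.65-fold in hypothalamus and 1.43-fold in cortex. The other two Cdkn1a probes kept the same order in every region, with ratios of 1.67 to 2.94. Deviations of the 3 probes had r = 0.868 to 0.951 over the 18 arrays.

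Mt1 and Mt2 encode metallothioneins, small cysteine-rich proteins that bind zinc and copper. Mt1 stood at 15.37, 15.31 and 15.15 in knockout cortex, against 15.22, 15.45 and 15.49 in wild type. Hippocampus arrays gave 15.39, 15.49 and 15.26 in knockout, against 15.42, 15.39 and 15.37 in wild type, and hypothalamus arrays gave 15.36, 15.39 and 15.17 in knockout, against 15.45, 15.49 and 15.45 in wild type. The genotypes did not overlap in hypothalamus, where knockout was lower. The Mt1 probe lay at the 99.97th percentile of levels, and quantile normalization leaves few steps at that rank. Mt2 stood at 8.46, 8.33 and 8.35 in knockout cortex, against 8.39, 8.74 and 8.38 in wild type. Hippocampus arrays gave 9.33, 8.89 and 8.98 in knockout, against 8.89, 8.76 and 8.99 in wild type. Hypothalamus arrays gave 8.66, 8.44 and 8.19 in knockout, against 9.08, 8.51 and 8.51 in wild type. The genotypes overlapped for Mt2 in each region.

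**Figure D1:**
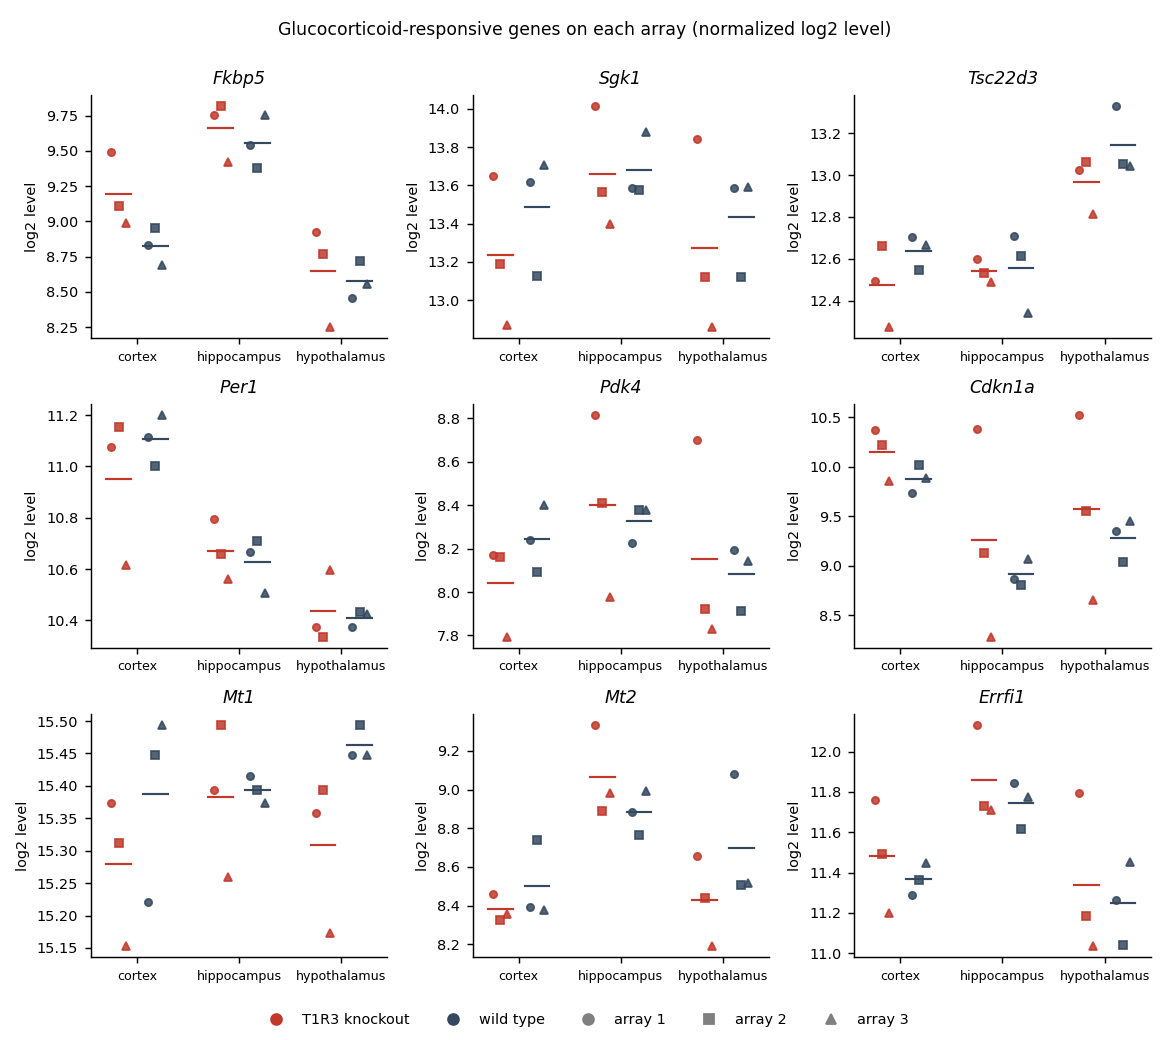
Normalized log2 level of 9 glucocorticoid-responsive genes on each array (1 probe a gene, of highest mean level), with knockout left of wild type in each region, marker shapes for array numbers 1 to 3 and a line at each group mean. For Cdkn1a in hippocampus the knockout arrays run from 10.38 to 8.28, while the wild-type arrays lie between 8.81 and 9.07.

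Knockout was then set against wild type in one limma fit over all arrays, with p-values adjusted by Benjamini-Hochberg over the 15476 probes. None of the 13 probes passed in any region. In cortex 0 of 13 passed an adjusted p of 0.05, where 2.69% of all probes did, and 1 had an unadjusted p under 0.05. In hippocampus 0 passed against a background of 1.25%, and in hypothalamus 0 passed against 1.60%, with 0 at an unadjusted p under 0.05 in both. Averaged over the regions 0 passed against 6.02%, again with 0 at an unadjusted p under 0.05. For a difference in the genotype effect from region to region, the F test called 0 members against 0.0452% of all probes, with 0 at an unadjusted p under 0.05 and limma's adjusted p from 0.847 to 1.

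The probe with an unadjusted p under 0.05 was Fkbp5 in cortex. It averaged 9.20 ± 0.26 in knockout and 8.82 ± 0.13 in wild type (SD, n = 3 each), a log2 difference of 0.37 ± 0.17 (SE; limma adjusted p = 0.321). In hippocampus the Fkbp5 difference was 0.11 ± 0.17 and in hypothalamus 0.07 ± 0.17. Fkbp5 was the 1 member probe whose cortex groups did not overlap, where 16.9% of all probes did not overlap. In hypothalamus the 1 such probe was Mt1, with a log2 difference of -0.16 ± 0.09 (limma adjusted p = 0.622), against 19.1% of all probes. In hippocampus 0 members were without overlap, against 15.5% of all probes. These shares are at or below the background.

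Intervals differed widely between members. For the brightest Cdkn1a probe the log2 difference was 0.27 in cortex (95% interval -0.64 to 1.18), 0.35 in hippocampus (-0.56 to 1.27) and 0.30 in hypothalamus (-0.62 to 1.21). For the brighter Per1 probe it was -0.16 in cortex (-0.42 to 0.11), 0.04 in hippocampus (-0.22 to 0.31) and 0.03 in hypothalamus (-0.24 to 0.29). Sgk1 differed by -0.25 in cortex (-0.79 to 0.29), -0.02 in hippocampus (-0.56 to 0.52) and -0.16 in hypothalamus (-0.70 to 0.38). The median difference of the 13 probes was -0.12 in cortex, 0.07 in hippocampus and 0.07 in hypothalamus, beside 0.01, 0.01 and 0.02 over all probes. Leaving out the 3 cortex arrays high in striatal markers keeps 1 knockout cortex array against 2 of wild type, and the lone array is then assumed to vary like the other groups. In that fit 0 members passed in cortex, which is no check of the cortex result.

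**Figure D2:**
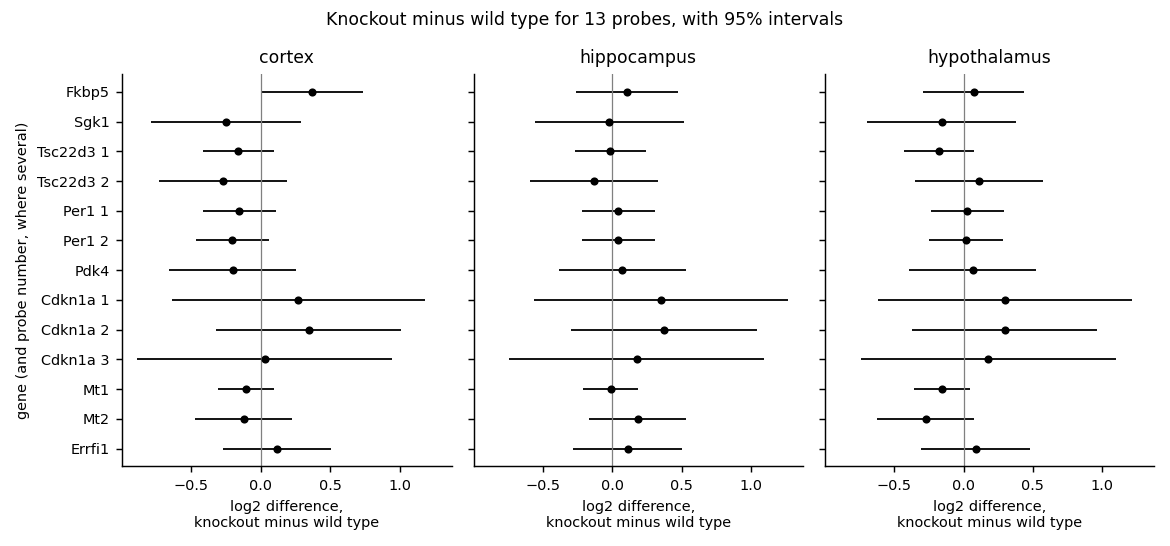
Log2 difference, knockout minus wild type, of the 13 probes of glucocorticoid-responsive genes in each region (points, limma estimates; bars, 95% intervals; n = 3 arrays each). The intervals cross 0 except for Fkbp5 in cortex, and those of Cdkn1a are the widest.

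Regions were compared between wild-type arrays, with the spread of each probe estimated over both genotypes. Fkbp5 was highest in hippocampus, with a log2 difference of 0.73 ± 0.17 for hippocampus minus cortex (limma adjusted p = 0.0072) and -0.98 ± 0.17 for hypothalamus minus hippocampus (limma adjusted p = 2.6e-04). Its means were 8.58 ± 0.13 in hypothalamus, 9.56 ± 0.19 in hippocampus and 8.82 ± 0.13 in cortex (SD, n = 3 each), and hypothalamus minus cortex did not pass (-0.25 ± 0.17, limma adjusted p = 0.251). Per1 was highest in cortex by both probes. Its brighter probe averaged 10.41 ± 0.03 in hypothalamus, 10.63 ± 0.11 in hippocampus and 11.11 ± 0.10 in cortex (SD, n = 3 each). The differences were -0.48 ± 0.12 for hippocampus minus cortex (limma adjusted p = 0.0128) and -0.70 ± 0.12 for hypothalamus minus cortex (2.3e-04), while hypothalamus minus hippocampus did not pass (-0.22 ± 0.12, 0.176). The second probe gave -0.71 ± 0.12 for hippocampus minus cortex and -0.87 ± 0.12 for hypothalamus minus cortex.

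The brighter Tsc22d3 probe was highest in hypothalamus, by 0.50 ± 0.12 over cortex (limma adjusted p = 0.00253) and 0.59 ± 0.12 over hippocampus (limma adjusted p = 9.4e-04). The second Tsc22d3 probe gave 0.07 ± 0.22 and 0.42 ± 0.22 for these differences and did not pass, so the probes did not give the same call. Errfi1 was lower in hypothalamus, at 11.25 ± 0.21, than in hippocampus, at 11.75 ± 0.12 (difference -0.50 ± 0.18, limma adjusted p = 0.0413). This Errfi1 call was lost when any 1 of 4 wild-type arrays (hippocampus 1 or 3, hypothalamus 1 or 2) was left out, with differences of -0.39 to -0.50. It was also lost with no detection filter and with signals centred on each array's median (-0.36), and the Tsc22d3 call for hypothalamus over cortex was lost with that centring too (0.41). The brighter Per1 probe also missed the threshold for hippocampus minus cortex without wild-type cortex array 3 (-0.43) or hippocampus array 3 (-0.42).

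In counts, 3 of 13 probes passed for hippocampus minus cortex, where 18.6% of all probes did. For hypothalamus minus cortex 3 passed against 49.5%, and for hypothalamus minus hippocampus 3 passed against 42.0%. In the fit over all arrays these counts lay near or below their backgrounds. Sgk1, Pdk4, Mt1, Mt2 and Cdkn1a did not pass in any of the 3 comparisons. The brightest Cdkn1a probe stood at 8.91 ± 0.14 in hippocampus and 9.88 ± 0.14 in cortex of wild type, a difference of -0.97 ± 0.43 (limma adjusted p = 0.137). With only the arrays of the groups compared, all 3 Cdkn1a probes passed for hippocampus minus cortex and for hypothalamus minus cortex. In those fits 7 member probes passed for hippocampus minus cortex, where 2470 of 15476 probes did, and 6 for hypothalamus minus cortex, where 54.6% did.

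Values by array number are given as a description, since they were in view when the genes were chosen. In the knockout the order array 1 above 2 above 3 held in all 3 regions for 6 of 13 member probes, those of Sgk1, Errfi1, Pdk4 and the 3 of Cdkn1a, while 1.16% of all probes had it. Array 1 was above array 3 in all regions for 11 of 13 member probes, with 13.4% of all probes. The 2 exceptions were one Tsc22d3 probe and one Per1 probe, each against the order in 1 region. In wild type 2 of 13 member probes, both of Tsc22d3, had array 1 above array 3 in all regions, with 14% of all probes. Each of the other five knockout orders was kept by 0 members and by 0.401% to 1.05% of all probes.

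The mean deviation of the 9 genes from their group mean was 0.18, 0.05 and -0.23 on knockout cortex arrays 1, 2 and 3. It was 0.30, -0.03 and -0.27 in knockout hippocampus and 0.34, -0.04 and -0.30 in knockout hypothalamus. On wild-type arrays it stayed between -0.11 and 0.08. On knockout array 1, 9 genes in cortex, 9 in hippocampus and 8 in hypothalamus were above their group mean, and on knockout array 3 these counts were 0, 0 and 1. Array 1 minus array 3, averaged over the genes and regions, was 0.54 ± 0.12 in knockout and -0.02 ± 0.07 in wild type (log2; SD over 3 regions). Without Cdkn1a it was 0.42 in knockout and -0.01 in wild type.

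Over all probes, deviations of same-numbered knockout arrays of different regions had a median r of 0.228 (-0.154 to 0.367, over 0.1 in 6 of 9), against -0.109 for different numbers. In wild type the median was 0.068 for the same number and -0.03 for different numbers. Deviations of a group from its own mean cancel out. The r for different numbers is therefore tied to that for the same number and is no separate reference. Whether a number marks 1 animal was not tested.

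Mean signal moved with these numbers in some regions, and its part in the order was not tested. It was 1082, 959 and 788 units on knockout hippocampus arrays 1, 2 and 3 and 1388, 1146 and 967 units in knockout hypothalamus, but 969, 1109 and 983 units in knockout cortex. In wild-type hippocampus it was 1066, 994 and 826 units on arrays 1, 2 and 3, and there the mean deviation of the members was 0.01, -0.05 and 0.04. None of the 11 lists of cell type, region and blood markers had the knockout order 1, 2, 3 in all regions, and the hippocampus list had it in 2. The means of the astrocyte, oligodendrocyte and hippocampus lists had array 1 above array 3 in each knockout region. By gene this held in all regions for 2 of 9, 2 of 8 and 1 of 6, beside 13.4% of all probes. It also held for 3 of 6 striatum markers, above that share, and for 0 or 1 gene of each remaining list. The 9 astrocyte markers stayed within -0.20 and 0.12 of the wild-type mean on the 9 knockout arrays, and the 8 endothelial and pericyte markers within -0.17 and 0.10, although 1 of these, the pericyte gene Rgs5, rose in every region and 2, Slco1a4 and Tek, fell in the average over regions. Some lists, the astrocyte list among them, lay below the wild-type mean in some or all knockout regions. Astrocyte markers averaged -0.112 to -0.074 on knockout hippocampus arrays, where the lowest wild-type array was at -0.032. In hypothalamus they averaged -0.202 to -0.111 on knockout arrays, where the lowest wild-type array was at -0.045. Of these 9 markers 0 passed in any region or in the average. On the same scale 8 oligodendrocyte markers averaged -0.53 to -0.14 on the 9 knockout arrays, and 5 of them fell in the average over regions (Cldn11, Mag, Mal, Opalin and Mog), where 6.02% of all probes passed. The 2 red cell markers tested averaged -1.20 to -0.15 on knockout arrays, and both fell in the average. The 7 meningeal markers averaged -1.44 to -1.32 on knockout hypothalamus arrays, against -0.82 to 0.79 on wild-type hypothalamus arrays, and 2 of them, Ptgds and Lum, fell there. The part of these lists in the members' values was not tested.

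**Figure D3:**
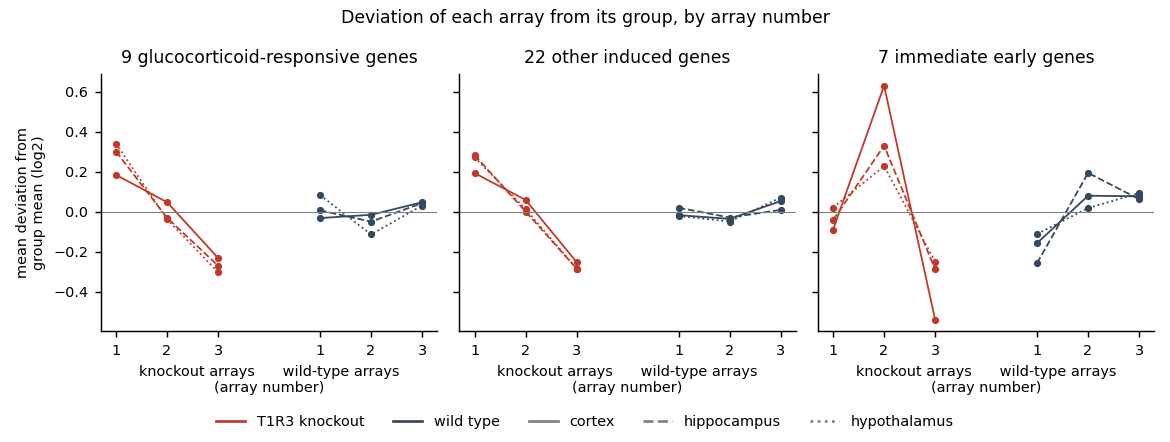
Mean deviation (log2) of each array from its group mean, by array number, for the 9 glucocorticoid-responsive genes, 22 other glucocorticoid-induced genes and 7 immediate early genes; knockout arrays stand left of wild-type arrays and line styles mark the regions. The first 2 panels run from positive on knockout array 1 to negative on knockout array 3, while immediate early genes are highest on knockout array 2. Members and lists were chosen with earlier results of these data known, so the panels are a description.

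A list of 30 other genes induced by glucocorticoids was set beside the members, and 22 of them were tested. This list too was chosen with earlier results of these data known. Its values by number are therefore a description and no separate check of the members. In the knockout their mean deviation was 0.19, 0.06 and -0.25 on cortex arrays 1, 2 and 3, 0.28, 0.00 and -0.28 in hippocampus and 0.27, 0.01 and -0.29 in hypothalamus. On wild-type arrays it lay between -0.05 and 0.07. Of the 22, 7 kept the order 1, 2, 3 in all knockout regions (Rhob, Fam107a, Ddit4, Sult1a1, Txnip, Plin4 and Angptl4), beside 1.16% of all probes, and 15 had array 1 above array 3 in all of them, beside 13.4%. Plin4, a coat protein of lipid droplets, stood at 9.70, 9.41 and 7.93 in knockout cortex, against 9.52, 9.21 and 9.23 in wild type. Values in hippocampus were 10.26, 9.74 and 8.27 in knockout, against 9.38, 9.42 and 9.37 in wild type, and those in hypothalamus were 10.15, 9.72 and 8.39, against 9.70, 9.63 and 9.57 in wild type. Knockout array 3 was below all wild-type arrays for Plin4 in every region.

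Sult1a1, a phenol sulfotransferase, stood at 11.09, 10.37 and 9.57 in knockout cortex, against 10.12, 10.44 and 10.75 in wild type. Ddit4, an inhibitor of mTOR complex 1, stood at 11.29, 10.73 and 10.64 in knockout hypothalamus, against 11.01, 10.67 and 11.29 in wild type. For both genes knockout array 1 was the highest knockout array in each region. None of the 22 changed with genotype in any region by limma. The smallest adjusted p-values were those of Map3k6 in cortex (-0.76 ± 0.30, limma adjusted p = 0.237), Bcl6 in hippocampus (0.32 ± 0.10, 0.192) and Klf15 in hypothalamus (0.30 ± 0.11, 0.294). Map3k6 lies on chromosome 4, as Tas1r3 does. Across wild-type regions 4 of the 22 passed for hippocampus minus cortex, 11 for hypothalamus minus cortex and 9 for hypothalamus minus hippocampus, near the 18.6%, 49.5% and 42.0% of all probes. Rasd1, a small GTPase, was higher in hippocampus than in cortex by 2.52 ± 0.24 (limma adjusted p = 2.4e-06).

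Immediate early genes, which neurons switch on with activity, did not have the same order. The 7 tested (Fos, Fosb, Junb, Egr1, Egr2, Arc and Npas4) averaged -0.09, 0.63 and -0.54 on knockout cortex arrays 1, 2 and 3, -0.04, 0.33 and -0.29 in hippocampus and 0.02, 0.23 and -0.25 in hypothalamus. Knockout array 2 was the highest and array 3 the lowest in each region. Array 3 was thus low in both lists, and arrays 1 and 2 changed places.

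The spread among arrays was larger in knockout for 11 of 13 member probes, and for 63.7% of all probes. Pooled over the regions, the median SD of all probes was 0.17 in knockout and 0.14 in wild type. For the brightest Cdkn1a probe it was 0.83 in knockout, above 99.7% of probes, and 0.17 in wild type, a ratio of 4.90. The other two Cdkn1a probes had SDs of 0.58 and 0.79 in knockout and 0.18 and 0.32 in wild type. Pdk4 had 0.39 in knockout and 0.13 in wild type, and Sgk1 had 0.41 in knockout and 0.26 in wild type. The exceptions were Mt2, with 0.20 in knockout and 0.23 in wild type, and the brighter Tsc22d3 probe, with 0.14 in knockout and 0.15 in wild type.

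**Figure D4:**
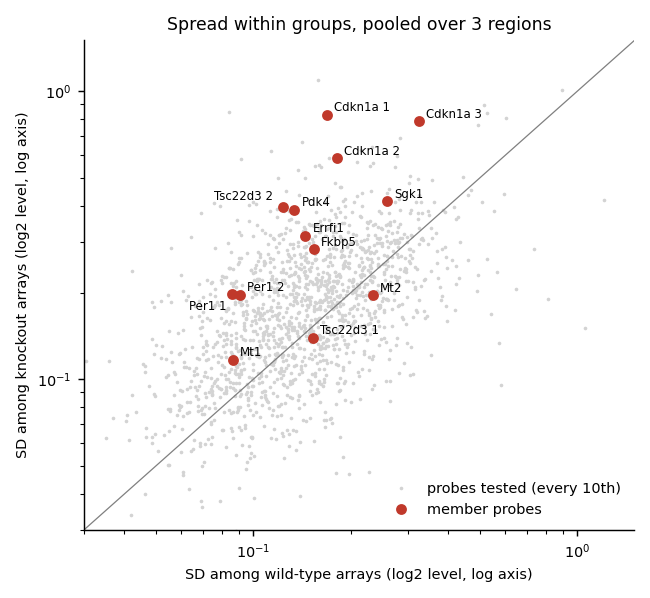
Pooled SD of log2 level among arrays within a group, knockout (vertical) against wild type (horizontal), both on log axes, for the 13 member probes (red) and every 10th probe tested (grey). The 3 Cdkn1a probes lie highest, between 0.58 and 0.83 in knockout, and 11 of 13 member probes lie above the line of equal spread.

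Some pairs of members also moved together from array to array. This is a description, since levels by array number were in view when the genes were chosen. No r of other gene pairs is set beside it. Over the deviations of the 18 arrays from their group means, the highest Pearson r between genes were 0.892 for Cdkn1a and Pdk4, 0.882 for Sgk1 and Pdk4 and 0.880 for Sgk1 and Errfi1. For Sgk1 and Errfi1 r was 0.991 over the 9 knockout arrays and 0.523 over the 9 wild-type arrays. For Sgk1 and Pdk4 it was 0.911 in knockout and 0.876 in wild type. Other pairs had a negative r over the 9 wild-type arrays. For Tsc22d3 and Fkbp5 it was 0.571 in knockout and -0.729 in wild type. For Per1 and Fkbp5 it was 0.095 in knockout and -0.728 in wild type. Over the 18 arrays the lowest pair was Per1 and Mt2 (r = -0.207), and the neighbouring metallothionein genes Mt1 and Mt2 had r = 0.205. The arrays share RNA, labelling and normalization across genes, and no p is given.

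Outside the members, 8 genes had deviations most like the members' mean. They were Mfsd2a (r = 0.978), Zfp758 (0.953), Tagap (0.930), Itgad (0.930), Heph (0.930), Plin4 (0.918), Mak16 (0.916) and 1600014C10Rik (0.914), each over 18 arrays. Mfsd2a lies on chromosome 4, as Tas1r3 does, Zfp758, Tagap and Plin4 lie on chromosome 17, and the others on 7, 8 and X. Knockout arrays of Tagap lay below all wild-type arrays in each region, and those of Zfp758 did so in cortex and hypothalamus. Over the 9 knockout arrays r was 0.938 to 0.986 for the genes most like the members' mean. Over the 9 wild-type arrays it was 0.859 for Mfsd2a, 0.813 for Tagap, 0.600 for Zfp758, 0.536 for Itgad, 0.397 for 1600014C10Rik and 0.139 for Heph, and it was negative for Plin4 (-0.231) and Mak16 (-0.203). Mfsd2a, a lipid transporter of the blood-brain barrier, stood at 11.54, 11.24 and 10.52 in knockout cortex, against 11.01, 11.06 and 11.23 in wild type. In hippocampus it stood at 11.55, 11.15 and 10.53 in knockout, against 10.88, 10.76 and 10.94 in wild type, and in hypothalamus at 11.89, 11.51 and 10.76, against 11.54, 11.37 and 11.44 in wild type. Knockout array 1 was above and array 3 below all wild-type arrays in each region. Mak16, a ribosome biogenesis factor, had wider gaps, at 9.94, 9.13 and 5.84 on knockout hypothalamus arrays, against 9.77, 9.84 and 9.89 in wild type.

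For Fkbp5 alone the 5 genes of most similar deviations were Ppfibp1 (r = 0.886), Tbc1d20 (0.877), Fh1 (0.873), Cd200 (0.866) and Ctu1 (0.866). Their r for Fkbp5 over the 9 wild-type arrays were 0.956, 0.722, 0.650, 0.391 and 0.682. None of these 5 was among the 8 genes most like the members' mean. Fkbp5 itself had r = 0.661 with Cdkn1a and 0.535 with Sgk1.

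The receptor and its partners were read from lists of pathway genes. Nr3c1, the glucocorticoid receptor, stood at 7.46, 8.06 and 7.82 in knockout cortex, against 7.97, 7.61 and 8.05 in wild type. Hippocampus arrays gave 7.58, 7.72 and 7.43 in knockout, against 8.11, 7.74 and 7.43 in wild type, and hypothalamus arrays gave 8.07, 7.63 and 7.06, against 7.85, 7.96 and 7.78 in wild type. The genotypes overlapped in every region, and the average difference was -0.18 ± 0.13 (limma adjusted p = 0.479). Nr3c2, the mineralocorticoid receptor, was not analysed here. Of 11 tested genes for receptors, chaperones and hormone metabolism, 0 passed in any single region and 1 fell in the average over regions, where 6.02% of all probes passed. It was H6pd, which supplies NADPH to the enzyme that regenerates corticosterone, at -0.26 ± 0.07 (limma adjusted p = 0.0461), and it lies on chromosome 4, as Tas1r3 does. Hsd11b1, that regenerating enzyme, was higher in wild-type hippocampus than in cortex by 0.55 ± 0.17 (limma adjusted p = 0.0339).

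These counts are read beside the shares of all probes that passed, 2.69% in cortex, 1.25% in hippocampus, 1.60% in hypothalamus and 6.02% in the average. In the hypothalamic-pituitary axis 0 of 6 tested genes passed in any single region and 1 in the average. Crhr2, a receptor of the corticotropin-releasing hormone family, rose by 0.43 ± 0.10 in the average over regions (limma adjusted p = 0.0187). Crhbp, the binding protein of that hormone, stood at 11.53, 11.29 and 11.34 in knockout hypothalamus, against 11.08, 10.90 and 11.01 in wild type, without overlap (0.38 ± 0.10, limma adjusted p = 0.0711). Among 11 circadian partners of Per1, 1 fell in every region. It was Per3, also on chromosome 4, with log2 differences of -1.37 ± 0.20 in cortex (limma adjusted p = 9.3e-04), -1.37 ± 0.20 in hippocampus (0.00109) and -1.39 ± 0.20 in hypothalamus (8.0e-04). Of 5 genes of metal handling 0 passed in any region or in the average. The smallest p were those of Mtf1, the zinc-sensing factor of metallothionein promoters (average 0.16 ± 0.07, limma adjusted p = 0.19), and Slc30a10 (0.19 ± 0.09, 0.275). Mtf1 also lies on chromosome 4. Of 7 immediate early genes 0 passed in any region or in the average, with Junb at -0.37 ± 0.12 (limma adjusted p = 0.0934).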

How the data were processed

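Bead arrays measured RNA of 3 brain regions in knockout and wild-type mice, 18 arrays in all. The deposited intensity values are bead signals per probe, not normalized between arrays, each with a deposited detection p-value, read with GenomeStudio 2011.1 per the submitters' processing notes. The authors' deposited score is each array's log signal minus its mean and divided by its SD, and served as an alternative. The sources used here give no background treatment, slide or scan date, so batches could not be compared. From the deposited intensities, neqc (limma 3.58.1, R 4.3.3, offset 16) gave background-corrected, quantile-normalized log2 levels. Probes with a detection p-value under 0.05 on at least 3 arrays were tested in a fit of 6 group means with 12 residual degrees of freedom and eBayes. Benjamini-Hochberg adjustment ran over all 15476 probes, with a threshold of 0.05. The number of arrays limits the precision.

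Of 25697 probes, 23978 had 1 symbol, 0 several and 1719 none. Symbols are from the platform annotation, updated through RefSeq (GRCm38.p6), which also gave promoters and chromosomes. Members and lists were chosen with earlier results of these data known. Named were all members, the 8 genes most like their mean and 5 most like Fkbp5, and, per list, at most 4 genes that passed, or 2 with the smallest p where none did. The other induced genes named for their order by array number were chosen after their values were seen. Where a gene had several probes, the brightest stood for it in means and lists. The fit did not pair the genotypes by array number. Deviations of same-numbered knockout and wild-type arrays of a region had r of -0.278 to 0.216, over 0.1 in 3 of 9. These values do not settle whether the numbers pair the genotypes. The fit was tested on simulated data. Python 3.11.15 with matplotlib 3.10.9 drew the figures.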

Additional observations from a re-analysis of the deposited data

Results flagged for a closer look

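Mt2 is listed because its knockout arrays all lay on one side of the wild-type mean in hippocampus and on the opposite side in the other regions. The log2 difference, knockout minus wild type, was -0.1226 in cortex, 0.1854 in hippocampus and -0.2710 in hypothalamus. The moderated F test of a difference between regions gave a limma adjusted p of 0.847 for Mt2.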

How the results depend on the processing

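No member changed with genotype in any single region under any of the alternatives run (1 of them with a lone knockout cortex array), nor in the average over regions with 1 exception: without the 3 knockout arrays numbered 3, an alternative chosen after seeing the data, 2 probes passed in the average (Fkbp5 and Cdkn1a), where 4.43% of all probes did. That setting also gave 7 calls for hippocampus minus cortex (20.4% of all probes) and 5 for hypothalamus minus hippocampus (43.7%). Without the 3 knockout arrays numbered 1, also chosen after seeing the data, there were 7 calls for hippocampus minus cortex (20.4%) and 5 for hypothalamus minus cortex (50.9%). With only the arrays of the groups compared these counts were 7 and 6 (2470 of 15476 probes and 54.6%), and with array weights 5 and 5 (24.7% and 59.7%), against 3 and 3. The cause of these shifts was not tested. With the replicate number as a block (replicate block) 4 probes passed for hippocampus minus cortex, 4 for hypothalamus minus cortex, 3 for hypothalamus minus hippocampus and 0 with genotype. Without the block 18.6%, 49.5% and 42.0% of all probes passed for these region comparisons, in the same order. The shares with the block are not given here. Whether the numbers pair knockout with wild-type arrays was not tested. Leaving out each array in turn gave 0 to 0 calls with genotype, 2 to 3 for hippocampus minus cortex, 3 to 3 for hypothalamus minus cortex and 2 to 3 for hypothalamus minus hippocampus. Of all 15476 probes, 1989 to 2739, 6625 to 6870 and 5497 to 5888 passed for these 3 region comparisons. With genotype 130 to 175 passed in hippocampus, 147 to 229 in hypothalamus and 688 to 1095 in the average. Over all probes, leaving out 1 array moved the cortex genotype count between 159 and 660, from 417. The order of knockout arrays 1, 2, 3 was kept by 6 probes also with median-centred signals, an offset of 50 and the deposited scores. The member mean of knockout array 1 minus array 3, 0.5430, was 0.4243 without Cdkn1a, chosen after seeing the data. Of 677 single-gene values recomputed, 664 kept their side of the threshold, 9 lost the threshold and 4 gained it. Direction was compared only for values that passed in the first fit or in the alternative, and 0 of them reversed. Signals near the top of the scale limit Mt1.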
